A study of Mus musculus with 8 samples.

Results

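Liver RNA of mice on a high-fat diet (HFD) with plain water was set directly against liver RNA of mice on a low-fat diet with arsenite in the water (LFD+As). The comparison asks where these single exposures leave liver transcripts at different levels, with no control array shared between its sides. Its members are the 2 HFD arrays and the 2 LFD+As arrays, 4 of the 8 arrays in the series, chosen by their labels alone. All mice were male C57Bl/6J. HFD supplied 42% of calories as fat and came with deionized water, and LFD+As supplied 13% of calories as fat with the same water, to which sodium arsenite had been added (3 mg/L as inorganic arsenic). The sides therefore differ in diet and in arsenite at once, and each lacks what the other received. The remaining arrays, LFD with plain water (2 arrays) and HFD with arsenite (HFD+As, 2 arrays), served as reference levels and entered the estimate of spread. Each group had 10 mice, and each array carried equal RNA amounts from 5 of them, so p-values measure the spread between pools and not between animals. The protocols state 10 weeks of exposure and the source label 90 days; the ages of the mice are not given in the sources used here.

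Both exposures are known to act on the liver, through different sensors. Dietary fat reaches hepatocytes as fatty acids, which are esterified, burned or stored in droplets and which activate the nuclear receptors of the PPAR family. Trivalent arsenic binds protein thiols: it frees the transcription factor NRF2 from its inhibitor KEAP1, it releases zinc and so drives metallothionein genes, and the methyltransferase encoded by As3mt converts it to methylated forms for excretion. Acute phase proteins and stress genes can answer to either, and a direct contrast shows only those transcripts on which the exposures differ.

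The data were Affymetrix gene arrays, with a deposited log2 signal for each transcript cluster (the probes that together stand for a gene). Array medians lay between 7.08 and 7.18, and the number of arrays limits the precision. Over the 11963 genes tested, the 2 LFD+As arrays correlated at r = 0.9932 and the 2 HFD arrays at r = 0.9908, while HFD and LFD+As arrays correlated at 0.987 to 0.9926; these are correlations across genes, which are not independent replicates. The summed linear signal of 8 hepatocyte markers lay between 116655 and 124268 on all 8 arrays, so the labelled tissue carried its defining markers. An array's deviation from the mean of all arrays followed the genomic span of the gene, with rank correlations of 0.221 and 0.346 on the LFD+As arrays against 0.244 and -0.137 on the HFD arrays.

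Few genes differed between the exposures beyond the spread between pools. Of 11963 genes, 5 (0.0418%) passed a Benjamini-Hochberg adjusted p of 0.05 in limma: Fabp5, Slc25a30 and Snord33 were higher in HFD (0.0251% of genes in that direction), and Etnppl and Akr1c19 were lower (0.0167%). The median difference over all genes was 0.02 on the log2 scale, and 11818 genes lay within 0.5 of 0. A difference of at least 1 (2-fold) was seen for 12 genes, 8 higher and 4 lower in HFD. At an unadjusted p of 0.05, 669 genes differed (5.59%), 463 of them higher (3.87%) and 206 lower (1.72%). The same fit called 55 genes between HFD and LFD (0.46%) and 8 between LFD+As and LFD (0.0669%), comparisons that share the 2 LFD arrays. With the HFD replicate 2 array, the LFD+As replicate 2 array or either LFD array left out, limma called 0 genes, with 460, 406 and 761 genes (761 for each LFD array) at an unadjusted p under 0.05; without HFD replicate 1 it called 19, with Etnppl, Fabp5 and Snord33 among them, and without LFD+As replicate 1 it called 12, with Etnppl, Fabp5 and Slc25a30. Each fit without 1 array keeps a single array in that group, so the spread within that group is not in the estimate. The HFD and LFD+As arrays fitted alone gave 4 calls, and of the 5 genes only Akr1c19 and Fabp5 were among these.

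**Figure D1:**
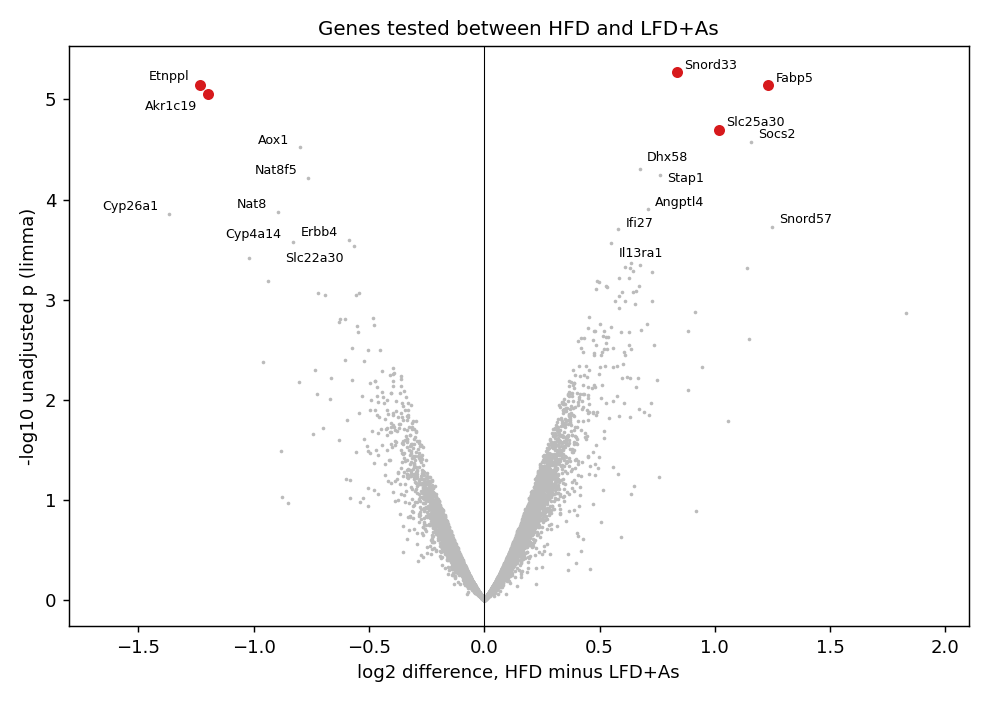
Log2 difference HFD minus LFD+As (horizontal axis) against -log10 of the unadjusted limma p (vertical axis) for the 11963 tested genes. Red points are the 5 genes past an adjusted p of 0.05, grey points all others, and named grey points are genes with the smallest p that did not pass.

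The called genes that rose did so from different sides of the contrast. Fabp5 encodes a cytosolic fatty acid binding protein. Its log2 signal was 9.63 and 9.75 in HFD and 8.48 and 8.43 in LFD+As, beside 8.68 and 8.51 in LFD and 8.71 and 8.03 in HFD+As. The HFD arrays thus stood above all 6 others, and LFD+As lay close to LFD. The difference was 1.23 (SE 0.17, 2.35-fold, limma adjusted p = 0.0264, n = 2 arrays against 2). Slc25a30 encodes a carrier of the mitochondrial inner membrane. It read 10.05 and 9.83 in HFD, 9.03 and 8.81 in LFD+As, 9.64 and 10.08 in LFD and 9.44 and 9.70 in HFD+As. Here HFD overlapped LFD, and the LFD+As arrays were the low ones. The difference between the exposures was 1.02 (SE 0.16, limma adjusted p = 0.0478), made of 0.08 for HFD minus LFD and -0.94 for LFD+As minus LFD. Slc25a30 missed the threshold with clusters averaged, with the HFD and LFD+As arrays alone and with the replicate number as a block (limma adjusted p = 0.0505, 0.0522 and 0.0704), and also without HFD replicate 1 (0.112) or either HFD+As array (0.058). Snord33 is a small nucleolar RNA that guides ribose methylation of ribosomal RNA. It read 8.68 and 8.83 in HFD, 7.92 and 7.91 in LFD+As, 8.24 and 8.12 in LFD and 8.70 and 8.78 in HFD+As. Its LFD+As arrays were lowest and its HFD and HFD+As arrays highest, with a difference of 0.84 (SE 0.12, limma adjusted p = 0.0264). With the trend on gene span removed from each array, Snord33 missed the threshold (limma adjusted p = 0.0743).

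The genes that fell in HFD both encode enzymes. Etnppl encodes the lyase that breaks down phosphoethanolamine, an intermediate of phospholipid synthesis. Its signal was 9.76 and 9.36 in HFD against 10.62 and 10.96 in LFD+As, with 11.10 and 10.67 in LFD and 10.36 and 10.54 in HFD+As. HFD lay below every other array, and LFD+As overlapped LFD. The difference was -1.23 (SE 0.17, limma adjusted p = 0.0264). Akr1c19 encodes an aldo-keto reductase, of a family that reduces carbonyl groups on steroids and xenobiotics. It read 9.08 and 9.19 in HFD, 10.41 and 10.25 in LFD+As, 10.18 and 9.92 in LFD and 10.13 and 10.75 in HFD+As. The HFD arrays were again the lowest of the 8, while LFD+As lay above LFD. Its difference was -1.20 (SE 0.17, limma adjusted p = 0.0264), made of -0.92 for HFD minus LFD and 0.28 for LFD+As minus LFD. Probes of Akr1c19, as those of the Nat8, Cyp4a, metallothionein and serum amyloid genes named further on, may also bind near-identical relatives.

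**Figure D2:**
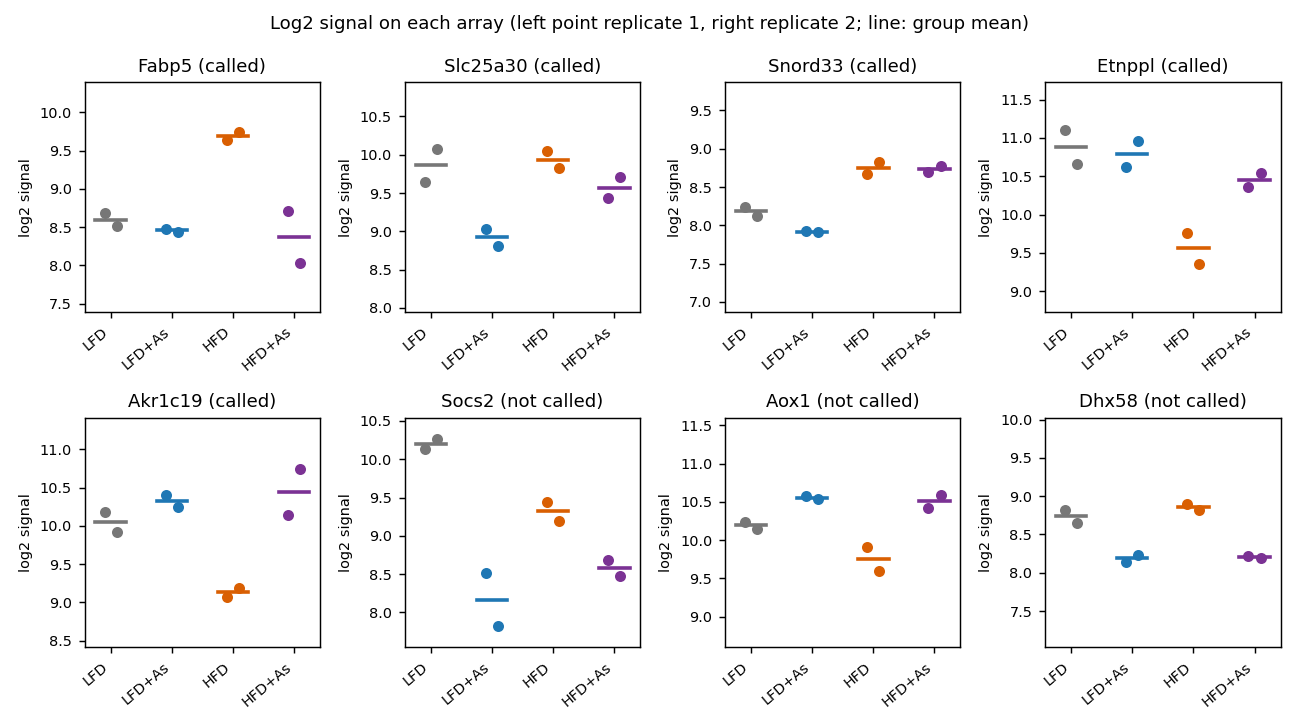
Log2 signal on each of the 8 arrays (vertical axis) by group for the 5 called genes and for Socs2, Aox1 and Dhx58, which were not called. Points are arrays, lines are group means; Fabp5 and Etnppl stand apart in HFD, and Slc25a30 is low in LFD+As.

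Genes next to the threshold are given as values. Socs2, a target and feedback inhibitor of growth hormone signalling, read 9.45 and 9.19 in HFD and 8.51 and 7.82 in LFD+As, and both stood below the 10.14 and 10.27 of LFD. The difference was 1.16 (limma adjusted p = 0.0512), and it was 0.89 when the 2 clusters of the gene were averaged. Aox1 encodes aldehyde oxidase, a molybdenum enzyme of drug and aldehyde metabolism. It read 9.91 and 9.60 in HFD, 10.57 and 10.54 in LFD+As and 10.24 and 10.15 in LFD, so the exposures lay on opposite sides of the control, with a difference of -0.80 (limma adjusted p = 0.0512). With HFD replicate 1 left out the Aox1 difference was -0.95, and without HFD replicate 2 it was -0.64.

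Dhx58, which encodes an RNA helicase related to the viral RNA sensor RIG-I, read 8.90 and 8.82 in HFD and 8.15 and 8.23 in LFD+As (difference 0.67, limma adjusted p = 0.0722). HFD lay at or just above the LFD arrays (8.82 and 8.65), and the HFD+As arrays (8.22 and 8.19) overlapped LFD+As. Stap1, an adaptor protein of blood cells, read 7.64 and 7.97 in HFD and 7.08 and 7.002 in LFD+As. Angptl4, a PPAR target that inhibits lipoprotein lipase, was at 8.72 and 8.96 in HFD, 8.07 and 8.19 in LFD+As and 7.75 and 7.67 in LFD, which puts both exposures above the control and HFD further from it. Their differences were 0.76 (limma adjusted p = 0.0722) and 0.71 (0.129). The small nucleolar RNA Snord57 read 8.74 and 8.82 in HFD, 7.52 and 7.55 in LFD+As and 10.31 and 9.18 in HFD+As (difference 1.25, limma adjusted p = 0.155). Further transcripts with higher HFD values were the interleukin receptor chain Il13ra1 (0.55), the GABA receptor subunit Gabbr2 (0.63) and the secreted serpin Serpina12 (0.68), with limma adjusted p of 0.179, 0.231 and 0.231.

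On the lower side, Nat8 and Nat8f5 belong to a family of N-acetyltransferases, and Nat8 acts in the last step of mercapturic acid formation from glutathione conjugates. Nat8f5 read 9.47 and 9.85 in HFD, 10.45 and 10.39 in LFD+As and 9.68 and 9.58 in LFD, and Nat8 read 8.48 and 8.44 in HFD and 9.25 and 9.45 in LFD+As. For Nat8f5 it was LFD+As that stood away from the control. Their differences were -0.76 (limma adjusted p = 0.0722) and -0.89 (0.129). Raet1d, a ligand of the natural killer receptor NKG2D, read 10.10 and 9.72 in HFD, 10.52 and 11.33 in LFD+As and 11.59 and 11.49 in LFD, a difference of -1.02 (limma adjusted p = 0.231). The 2 LFD+As arrays were far apart, and without replicate 1 of LFD+As the difference was -1.42, while without replicate 2 it was -0.61. The uptake carriers Slco1a4 (-0.94), Slco2a1 (-0.54) and Slc22a30 (-0.56) and the receptor kinase Erbb4 (-0.59) were also lower in value in HFD, with limma adjusted p of 0.249, 0.251, 0.183 and 0.179.

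Among genes whose differences HFD minus LFD and LFD+As minus LFD had opposite signs, which share the 2 LFD arrays, the 10 with the smallest p between the exposures were Fabp5, Slc25a30, Snord33, Akr1c19, Dhx58, Stap1, Aox1, Nat8, Snord57 and Ifi27. An opposite sign does not place both exposures away from the control: Slc25a30 under HFD (0.08) and Stap1 under LFD+As (-0.07) lay within 1 SE of it (0.16 and 0.13). Nat8 lay -0.48 from LFD under HFD and 0.41 under LFD+As, and Aox1 -0.44 and 0.36. Ifi27 lay 0.57 from LFD under HFD and -0.01 under LFD+As, so for this gene nearly all of the contrast came from the HFD side.

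**Figure D3:**
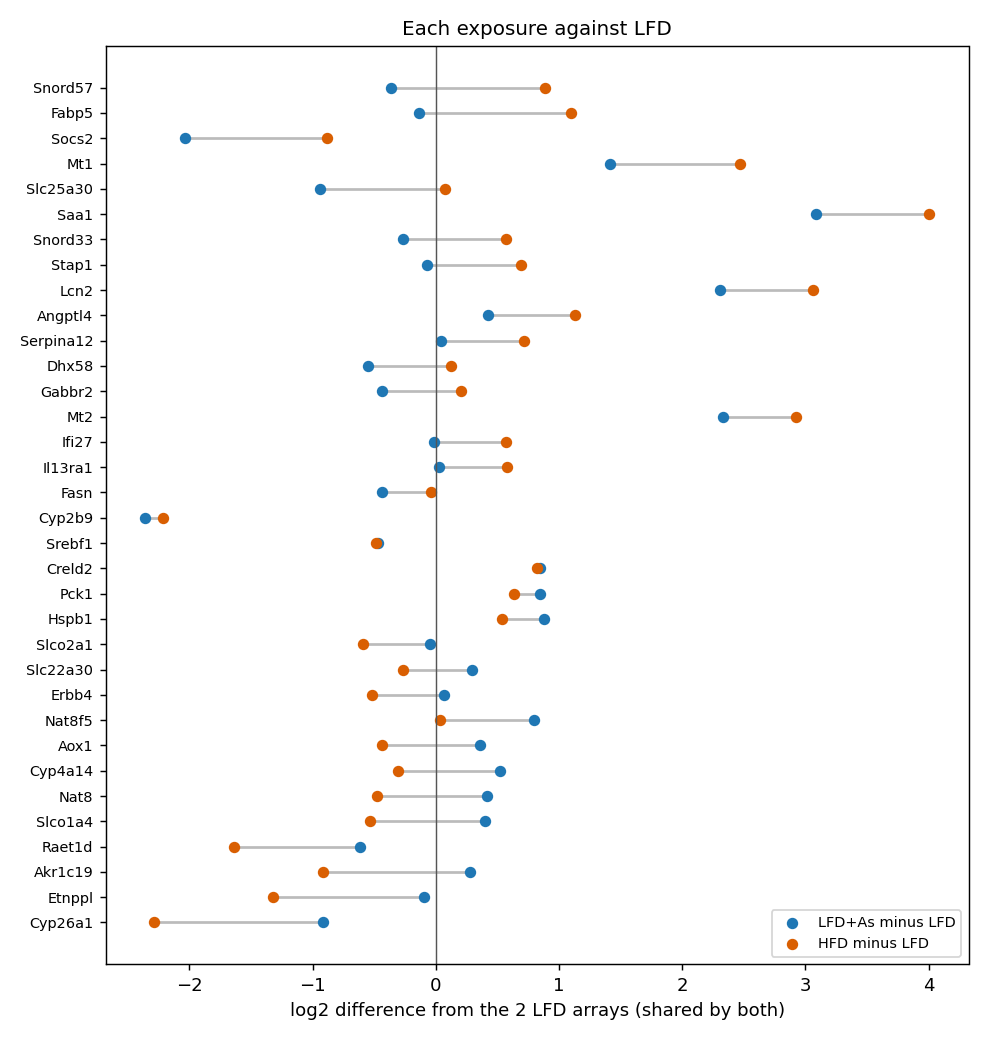
Log2 difference from the mean of the 2 LFD arrays (horizontal axis) for LFD+As (blue) and HFD (orange) for named genes, ordered by HFD minus LFD+As. The length of a grey line is the difference in value between the exposures, long for Fabp5 and Etnppl and short for Creld2 and Srebf1. Length does not show the spread: Mt1, Saa1 and Raet1d also have long lines and were not called.

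Genes of inflammation and innate defence had higher values in HFD than in LFD+As, although 0 members of these lists were called by limma. All 20 tested interferon-stimulated genes, of 23 on the array, lay above 0, against 57.8% of all genes, with a median difference of 0.25. The arrays of the groups did not overlap for 11 of them, all higher in HFD, against 24.6% of all genes higher and 12% lower. An unadjusted p under 0.05 was seen for 7, all higher in HFD, against 3.87% of all genes. Against LFD the list's medians were 0.04 for HFD and -0.27 for LFD+As. There, 11 of 20 members lay above LFD in HFD and 6 of 20 in LFD+As. Without HFD replicate 1 the median was 0.12, with 15 of 20 above 0. Acute phase genes, which answer to inflammation in the liver, lay above 0 for all 23 tested members, with a median of 0.28. The arrays did not overlap for 13, all higher in HFD (4 with an unadjusted p under 0.05). Their medians against LFD were 0.54 for HFD and 0.37 for LFD+As, so this list lay above the control on both sides. The median of the acute phase list between the exposures was 0.13 without LFD+As replicate 2 and 0.39 without LFD+As replicate 1.

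Chemokine and inflammatory signalling genes lay above 0 for 15 of 18 tested members, with a median of 0.26. The arrays of 11 did not overlap, all higher in HFD, and 8 had an unadjusted p under 0.05, also higher. Over all genes, the shares above 0, apart and higher, and under that p and higher were 57.8%, 24.6% and 3.87%. Against LFD the chemokine list's medians were 0.42 for HFD and 0.20 for LFD+As. There, 17 of 18 members lay above LFD in HFD and 14 of 18 in LFD+As. Macrophage markers were also higher in value: 14 of 15 tested members lay above 0, 12 had arrays that did not overlap, all higher in HFD, 7 had an unadjusted p under 0.05, and the median was 0.30. The summed linear signal of all 18 macrophage markers was 16959 and 16247 in HFD, 12155 and 14674 in LFD+As, 14409 and 13923 in LFD, and 14048 and 11653 in HFD+As. The macrophage median was 0.17 without LFD+As replicate 1, the array with the lower sum, and the chemokine median 0.17 without LFD+As replicate 2. In pooled liver RNA, fewer cells of a type and less RNA per cell cannot be told apart, and the part of the macrophage markers in the interferon, acute phase and chemokine lists was not tested. The 3 tested neutrophil markers had a median of 0.13 and the 6 tested lymphocyte markers -0.05.

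Within the interferon list, Usp18, which removes the ubiquitin-like ISG15 and damps receptor signalling, read 9.13 and 8.94 in HFD, 8.43 and 8.47 in LFD+As and 9.34 and 9.16 in LFD. HFD lay just under LFD, and both LFD+As arrays were lower still (difference 0.58, limma adjusted p = 0.253). Ifit1, whose protein binds foreign RNA, read 8.65 and 8.10 in HFD and 7.78 and 7.58 in LFD+As, and Ifit3, its partner, 8.98 and 8.51 and 8.12 and 8.28. The guanylate-binding protein gene Gbp3 read 8.01 and 7.67 in HFD and 7.49 and 7.51 in LFD+As. LFD read 8.57 and 8.17 for Ifit1, 8.99 and 8.67 for Ifit3 and 7.85 and 7.69 for Gbp3, and HFD+As 8.65 and 7.78, 8.84 and 8.24 and 7.77 and 7.50. For all 3 the LFD+As arrays lay below HFD and LFD, but HFD+As replicate 2 was about as low, and over the 23 list members on the array it had the lowest summed linear signal (8581, against 9046 and 10078 in LFD+As). Between HFD and LFD+As these genes had differences of 0.69, 0.54 and 0.34, and none passed the threshold (limma adjusted p = 0.681, 0.692 and 0.789). Ifi27, a mitochondrial interferon-induced protein, differed in kind, with 10.31 and 10.23 in HFD above 9.67 and 9.71 in LFD+As and 9.66 and 9.74 in LFD (difference 0.58, limma adjusted p = 0.155). Gbp11 lay below LFD on both sides (-0.93 for HFD and -1.08 for LFD+As) and differed by only 0.15 between them.

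Interferon signals reach these genes through the factor ISGF3, which binds the interferon-stimulated response element. That element was searched as TTTCNNTTTC, or GAAANNGAAA on the other strand, in the 250 bases before each start in the RefSeq promoter table (GRCm38.p6). Of the 20 tested members, 16 had a promoter there and 8 held a match (Ifit1, Ifit3, Rsad2, Oas1a, Stat2, Gbp3, Irgm1 and Cxcl10), against 3.46% of all 27025 genes with a promoter there. A match is a description of the letters and not of a bound site. The promoters of Ifit1 (chr19:34640639-34640888, strand +; matches beginning 104 and 85 bases before the start), Ifit3 (chr19:34583279-34583528, strand +; 156 and 122) and Gbp3 (chr3:142559794-142560043, strand +; 45 and 39, overlapping) are shown because these genes carry matches and low LFD+As values. Capitals mark the matches.
Ifit1: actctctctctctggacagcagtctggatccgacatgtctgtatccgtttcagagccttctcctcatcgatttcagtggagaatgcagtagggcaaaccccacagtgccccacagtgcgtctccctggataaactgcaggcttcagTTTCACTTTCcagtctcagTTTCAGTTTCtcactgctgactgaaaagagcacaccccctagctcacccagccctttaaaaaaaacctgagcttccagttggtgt
Ifit3: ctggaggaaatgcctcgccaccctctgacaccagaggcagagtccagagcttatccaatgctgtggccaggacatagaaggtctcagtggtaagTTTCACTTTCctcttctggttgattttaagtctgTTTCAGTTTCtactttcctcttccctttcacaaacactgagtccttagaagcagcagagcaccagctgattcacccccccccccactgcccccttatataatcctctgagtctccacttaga
Gbp3: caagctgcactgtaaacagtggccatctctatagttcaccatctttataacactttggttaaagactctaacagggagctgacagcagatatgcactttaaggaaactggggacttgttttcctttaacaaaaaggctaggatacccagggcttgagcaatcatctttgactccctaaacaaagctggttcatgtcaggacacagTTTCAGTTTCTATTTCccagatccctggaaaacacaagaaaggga

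Among secreted acute phase proteins, the members with the smallest p were Fgl1, a hepatocyte fibrinogen-like protein (0.57, limma adjusted p = 0.524), and Apcs, serum amyloid P. Apcs read 10.91 and 11.996 in HFD and 10.89 and 10.25 in LFD+As (difference 0.89, limma adjusted p = 0.626), so one HFD array carried most of the gap. Lcn2, an iron-siderophore-binding protein, read 12.49 and 12.97 in HFD, 12.55 and 11.40 in LFD+As and 9.05 and 10.28 in LFD. Saa1, serum amyloid A, read 10.08 and 10.48, 10.07 and 8.66 and 5.04 and 7.51 in the same order. Both genes stood far above LFD under either exposure, and their HFD and LFD+As arrays either touched or overlapped. The differences between the exposures were 0.76 (95% interval -0.04 to 1.55) and 0.92 (-0.31 to 2.14), intervals wide enough to hold a 2-fold difference. Among signalling genes, Junb, a subunit of the transcription factor AP-1, differed by 0.67, and the cytokine gene Il1b read 7.28 and 7.36 in HFD and 6.84 and 6.83 in LFD+As (limma adjusted p = 0.251 for both). The monocyte attractant Ccl2 read 8.60 and 9.22 in HFD and 8.08 and 7.98 in LFD+As (0.88, limma adjusted p = 0.363). Of the macrophage markers, the complement genes C1qc and C1qa each differed by 0.51 (limma adjusted p = 0.429 and 0.642), and the Kupffer cell lectin Clec4f by 0.44. Timd4, a marker of resident Kupffer cells, was the exception at -0.11. The binding site of NF-kB, a factor that drives many of these genes, was searched as GGGANNNCCC (GGGNNNTCCC on the other strand) and found in 1 of 19 acute phase and 2 of 13 chemokine list genes, against 5.44% of all genes. A shorter form, GGGNNNTCC or GGANNNCCC, which the longer one contains, was found in 3 of 19 and 3 of 13, against 16.9%.

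Genes under NRF2 and of glutathione metabolism had lower values in HFD. Of 21 tested members, 17 lay below 0 (42.2% of all genes did), and limma called 0. The arrays of 10 did not overlap, all lower in HFD (12% of all genes). An unadjusted p under 0.05 was seen for 6, also lower (1.72% of all genes). The list's median was -0.18, and against LFD the medians were -0.07 for HFD and 0.08 for LFD+As. The median between the exposures was -0.09 without LFD+As replicate 1. Ugdh, which makes UDP-glucuronate for conjugation, read 11.87 and 11.63 in HFD, 12.60 and 12.34 in LFD+As and 12.32 and 12.27 in LFD (difference -0.72, limma adjusted p = 0.251). Its HFD arrays lay below the control, and LFD+As lay at or above it. Nqo1, a quinone reductase and a common readout of NRF2, read 7.12 and 7.04 in HFD and 7.79 and 7.42 in LFD+As, beside 7.82 and 7.20 in LFD. The spread within LFD was as wide as the difference of -0.53 between the exposures (limma adjusted p = 0.936). The subunits of glutamate-cysteine ligase, the first enzyme of glutathione synthesis, differed by -0.30 (Gclm) and -0.27 (Gclc), and both lay at the LFD level in LFD+As. The epoxide hydrolase Ephx1 differed by -0.44. Hmox1, heme oxygenase, went the other way at 0.25, and lay above LFD under both exposures (0.60 for HFD and 0.35 for LFD+As).

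NRF2 binds the antioxidant response element, searched here as TGACNNNGC, or GCNNNGTCA on the other strand. Of 17 tested members with a promoter in the table, 6 held it (Nfe2l2, Gclm, Txnrd1, Gsta3, Ugdh and Abcc4), against 11.5% of all genes. Ugdh (chr5:65435843-65436092, strand -; matches beginning 132 and 94 bases before the start) and Gclm (chr3:122245307-122245556, strand +; 134) are shown as members with a match and low HFD values, with the matches in capitals.
Ugdh: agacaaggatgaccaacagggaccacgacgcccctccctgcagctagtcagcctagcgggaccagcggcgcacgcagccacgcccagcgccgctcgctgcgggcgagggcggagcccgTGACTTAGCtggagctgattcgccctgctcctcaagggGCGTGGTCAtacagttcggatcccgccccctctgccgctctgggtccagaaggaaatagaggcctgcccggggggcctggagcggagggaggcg
Gclm: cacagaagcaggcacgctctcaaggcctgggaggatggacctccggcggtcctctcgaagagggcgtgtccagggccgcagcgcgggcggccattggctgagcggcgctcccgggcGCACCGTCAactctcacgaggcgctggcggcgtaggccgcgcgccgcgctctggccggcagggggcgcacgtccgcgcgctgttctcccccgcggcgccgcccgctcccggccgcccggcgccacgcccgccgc

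**Figure D4:**
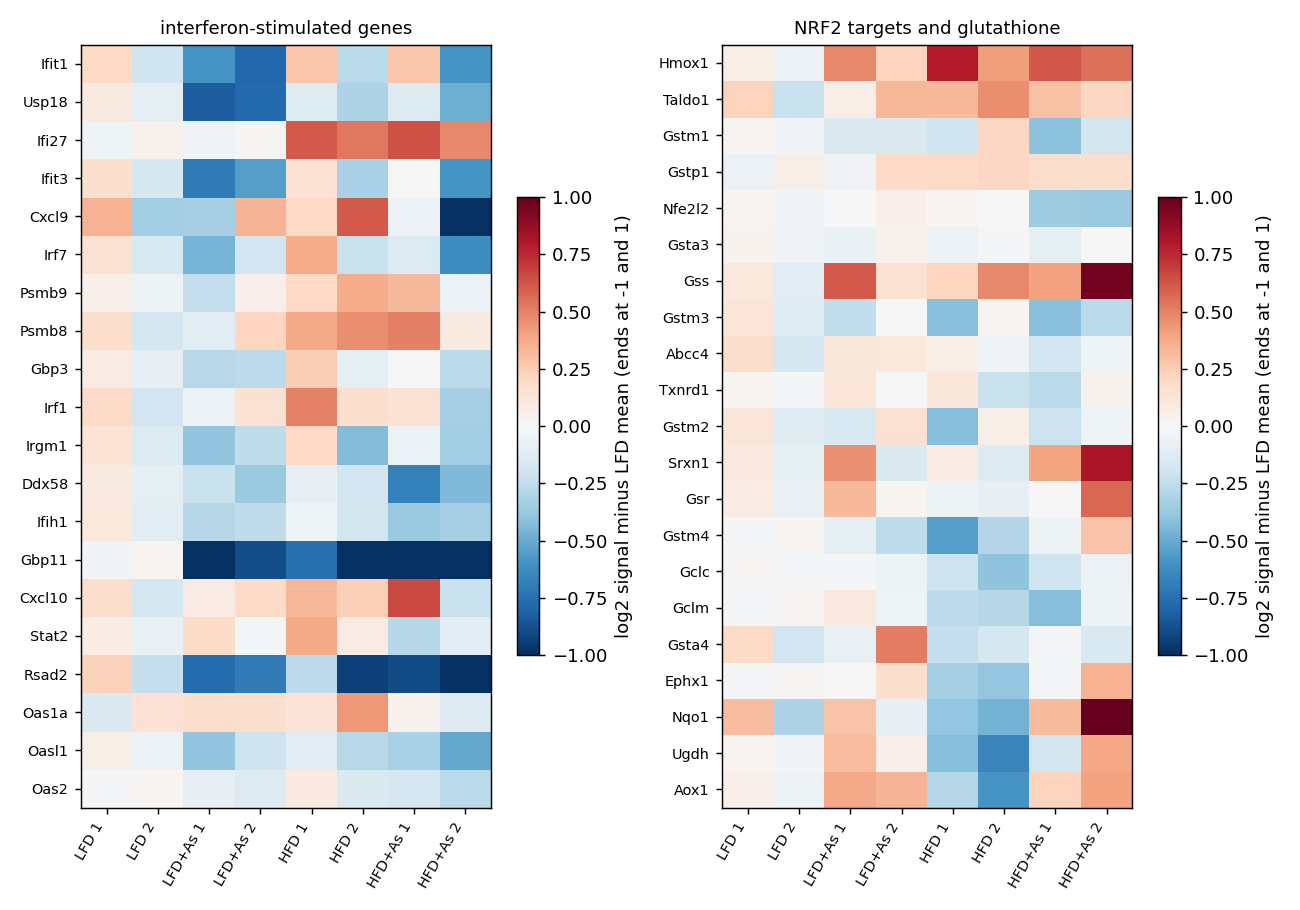
Log2 signal minus the mean of the 2 LFD arrays (colour, ends at -1 and 1) on each of the 8 arrays (columns) for the tested interferon-stimulated genes (left) and NRF2 targets (right), ordered by HFD minus LFD+As. Blue LFD+As columns beside paler HFD columns are seen for Ifit1, Usp18 and Ifit3, and blue HFD columns for Ugdh and Aox1.

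Most genes of the metal and heat shock response, known to answer to arsenite, stood above LFD under both exposures. In the metal and heat shock list 9 of 16 tested members lay above 0 and 7 below, with a median of 0.03, while the medians against LFD were 0.38 for HFD and 0.31 for LFD+As. The metallothionein gene Mt1, whose product binds zinc and other metals, read 11.54 and 11.06 in HFD, 11.10 and 9.38 in LFD+As and 9.02 and 8.65 in LFD. Mt2 read 12.74 and 12.78, 13.24 and 11.09 and 10.09 and 9.59. Every HFD and LFD+As array stood above LFD, but the 2 LFD+As arrays differed from each other by more than the groups did. The difference between the exposures was 1.06 for Mt1 (95% interval 0.23 to 1.89, limma adjusted p = 0.701) and 0.59 for Mt2 (-0.43 to 1.62, 0.999). These values depended on which LFD+As array was kept: without replicate 1 they were 1.92 and 1.67, and without replicate 2 they were 0.20 and -0.48. Replicate 1 of LFD+As lay within or above the HFD arrays, and replicate 2 lay below them. Hspb1, which encodes a small heat shock protein, read 9.87 and 9.43 in HFD and 10.33 and 9.65 in LFD+As, which overlapped (-0.34, 95% interval -0.77 to 0.08). As3mt differed by -0.04. Dnajc12, a cochaperone of aromatic amino acid hydroxylases, read 9.32 and 10.04 in HFD and 8.90 and 8.18 in LFD+As (1.14, limma adjusted p = 0.231). The metal response element core, searched as TGCGCNC or GNGCGCA, was held by 4 of 12 list members with a promoter, against 14% of all genes. These were Mt2, Dnaja1, Hspe1 and Hspd1, of which only Mt2 is a metallothionein gene.

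Most genes of the unfolded protein response stood above LFD under both exposures, with medians of 0.20 for HFD and 0.28 for LFD+As, and 19 of 25 tested members lay below 0 between the exposures, with a median of -0.05. That median was -0.17 without HFD replicate 1 and turned to 0.10 without HFD replicate 2. Creld2, a chaperone of the endoplasmic reticulum, read 12.25 and 11.998 in HFD, 12.30 and 12.004 in LFD+As and 11.36 and 11.25 in LFD, a difference of -0.03 between the exposures with a 95% interval of -0.32 to 0.26. Its distance from LFD (0.82 and 0.85) was larger than any value in that interval. The cytochrome gene Cyp2b9, which female mice express more than males, was low on both sides, at 6.82 and 6.88 in HFD and 6.21 and 7.20 in LFD+As, with LFD at 9.91 and 8.22. Its difference of 0.14 had an interval of -0.72 to 1.004. The Cyp2b9 means in HFD, LFD+As and HFD+As (6.85, 6.71 and 6.68) lay below 6.975, the lowest mean tested. The gene was thus tested only through its LFD arrays. Between values this dim, a small difference says little on whether the exposures agree. For the gluconeogenic enzyme gene Pck1 the difference was -0.21 (-0.65 to 0.23). Of 20 tested genes of arsenic methylation and one-carbon metabolism, 13 lay below 0 with a median of -0.08, and Pnp and Cth had the smallest p (0.31 and -0.33, limma adjusted p = 0.757 and 0.902).

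Lipid genes are given by role. Fatty acid synthesis genes lay above 0 for 15 of 21 tested members (57.8% of all genes did), with a median of 0.16 and 0 called by limma. Their arrays were apart for 7 higher and 2 lower, beside 24.6% and 12% of all genes. At an unadjusted p under 0.05 there were 7 higher and 1 lower, beside 3.87% and 1.72% of all genes. HFD lay near LFD (-0.03) and LFD+As below it (-0.22), where 20 of the 21 members were below 0. Replicate 1 of LFD+As carried this: the list's median was 0.01 without it and 0.33 without replicate 2. Pnpla3, a lipase-like protein induced by feeding, read 8.33 and 8.80 in HFD and 7.79 and 8.02 in LFD+As, and Acaca, acetyl-CoA carboxylase, 11.02 and 11.40 and 10.40 and 10.82. Their arrays did not overlap, with differences of 0.66 and 0.60 (limma adjusted p = 0.251 and 0.524). Fasn, fatty acid synthase, differed by 0.40 and Scd1, the main hepatic desaturase, by 0.20. The regulator gene Srebf1 did not follow, at -0.02 (95% interval -0.32 to 0.28), and Mlxipl, which encodes the glucose-responsive factor ChREBP, was lower in value in HFD (-0.42).

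Targets of PPAR-alpha lay on both sides of 0. Of 27 tested genes of fatty acid oxidation and PPAR-alpha response, 15 lay above 0 and 12 below, with a median of 0.01. Their arrays were apart for 4 higher and 8 lower, beside 24.6% and 12% of all genes. Beside the higher Angptl4 stood the lower omega-hydroxylase Cyp4a14, at 12.72 and 13.03 in HFD, 13.93 and 13.49 in LFD+As and 13.35 and 13.03 in LFD (difference -0.83, limma adjusted p = 0.179). Cyp4a10 (-0.63) and the pyruvate dehydrogenase kinase gene Pdk4 (-0.48) had the sign of Cyp4a14. The PPAR element of the direct repeat type, AGGTCANAGGTCA or TGACCTNTGACCT, was found in 0 of 21 genes of the list and in 0.0407% of all genes, so its absence says only that these letters are not in the window. In the lipid droplet list 13 of 21 tested members lay below 0, with a median of -0.03. The droplet coat gene Plin2 read 12.67 and 12.57 in HFD and 12.08 and 12.18 in LFD+As (difference 0.49, limma adjusted p = 0.249), without overlap. Pparg differed by -0.36 and the droplet fusion gene Cidec by -0.10. Cholesterol synthesis and uptake genes had a median of 0.07 with 13 of 18 above 0, and Sqle, squalene epoxidase, differed by 0.09; Pmvk and Dhcr7, of the same pathway, had the list's smallest p (0.29 and 0.13).

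**Figure D5:**
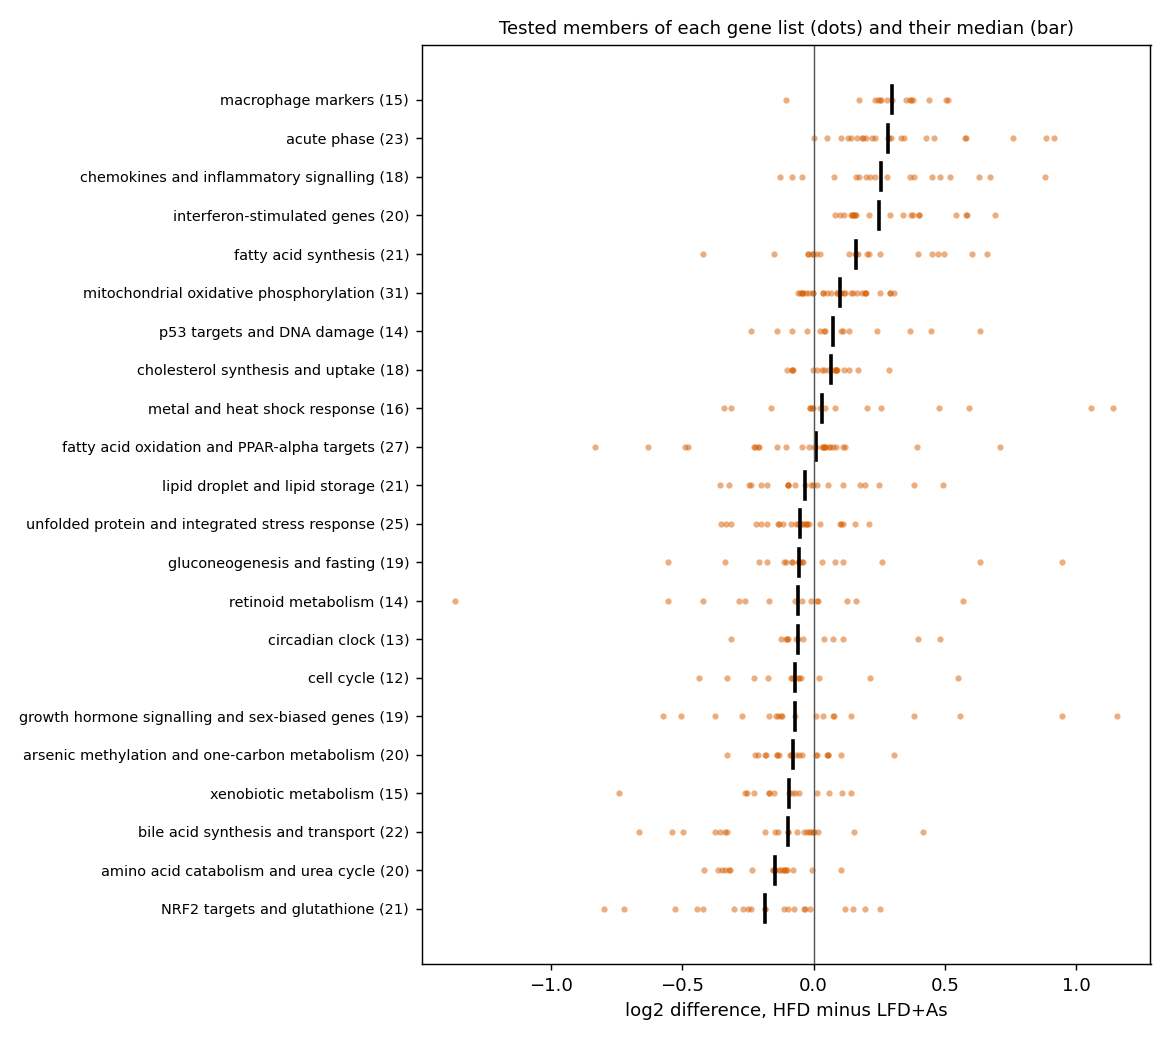
Log2 difference HFD minus LFD+As (horizontal axis) of each tested member (points) and the median (bar) of the 21 pathway lists and the macrophage markers, ordered by median, with the number of tested members in brackets. Macrophage, acute phase, chemokine and interferon medians lie between 0.25 and 0.30 and the NRF2 median at -0.18; no member of any list was called.

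Genes of amino acid and bile acid metabolism had mostly lower values in HFD, while the direction of the retinoid and drug metabolism lists rested on 1 array. Cyp26a1, which clears retinoic acid, read 9.72 and 9.49 in HFD, 10.40 and 11.54 in LFD+As, 11.99 and 11.79 in LFD and 9.50 and 9.19 in HFD+As. Both exposures lay below the control and HFD furthest, but replicate 1 of LFD+As was far under replicate 2. The difference was -1.36 (SE 0.26, limma adjusted p = 0.129). It was -1.93 without LFD+As replicate 1 and -0.80 without replicate 2, each resting on 1 LFD+As array. Bco1, which cleaves carotene, differed by 0.57 (limma adjusted p = 0.266), and the retinoid list as a whole had 9 of 14 tested members below 0 and a median of -0.06, which turned to 0.06 without LFD+As replicate 2. Of 20 tested genes that break down amino acids or make urea, 19 lay below 0, with a median of -0.15 (-0.21 for HFD and -0.06 for LFD+As against LFD). The arrays did not overlap for 11, all lower in HFD, and 4 had an unadjusted p under 0.05, also lower. Over all genes, the shares below 0, apart and lower, and under that p and lower were 42.2%, 12% and 1.72%. Of the amino acid list limma called 0, and its median was -0.08 without HFD replicate 2. The transaminase genes Gpt2 (-0.35) and Oat (-0.42) had the smallest p.

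Of 22 bile acid genes, 18 lay below 0 (42.2% of all genes did), with a median of -0.10. Their arrays were apart for 1 higher and 5 lower, beside 24.6% and 12% of all genes. At an unadjusted p under 0.05 there were 5 lower, beside 1.72% of all genes. Without HFD replicate 2 the list's median was -0.03. The export pump gene Abcc3 read 10.80 and 10.01 in HFD and 10.96 and 11.18 in LFD+As (difference -0.66, limma adjusted p = 0.578), with the gap mostly from one HFD array, and Abcc2 differed by -0.35. Cyp7a1, the rate-limiting enzyme of bile acid synthesis, read 11.12 and 11.72 and 12.24 and 11.59, and the groups overlapped. In the xenobiotic list 11 of 15 members lay below 0 (median -0.09, turning to 0.02 without LFD+As replicate 2). Cyp2c55 read 7.66 and 7.81 in HFD and 7.91 and 9.04 in LFD+As, so its difference of -0.74 came mostly from 1 LFD+As array. It was -1.31 without replicate 1 of LFD+As and -0.17 without replicate 2. The aryl hydrocarbon receptor gene Ahr differed by -0.26. The growth hormone and sex-biased list was mixed, 9 above and 10 below 0, with Cyp4a12b, a male-biased cytochrome gene, at -0.57 (limma adjusted p = 0.423) opposite to Socs2.

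Oxidative phosphorylation genes lay above 0 for 22 of 31 tested members (57.8% of all genes did), with a small median of 0.10. The arrays were apart for 18 higher and 1 lower, against 24.6% and 12% of all genes. Only 1 had an unadjusted p under 0.05, higher in HFD, near the 3.87% of all genes. The median was 0.07 with the trend on gene span removed; Ndufa2, a subunit of respiratory complex I, and Ndufa4, which associates with cytochrome oxidase, had the smallest p (0.31 and 0.29). The medians were -0.06 for the circadian clock (13 tested; Clock -0.31 and Bhlhe40 0.40), -0.06 for gluconeogenesis and fasting (19 tested; the insulin-repressed Igfbp1 0.95 and Gadd45g 0.63), -0.07 for the cell cycle (12 tested; Ccnd1 0.55 and Ccnb2 -0.43) and 0.07 for p53 targets (14 tested; Gadd45b 0.37 and Btg2 0.45). None of these members passed the threshold in limma. Leaving out 1 array turned the sign of the clock and gluconeogenesis medians, and of those of the cholesterol, fatty acid oxidation, lipid droplet, metal and heat shock, arsenic methylation and growth hormone lists. Markers of other cells gave medians of 0.04 for hepatocytes (8 tested), -0.01 for exocrine pancreas (4), 0.02 for cholangiocytes (2), -0.12 for erythroid cells (2) and 0.04 for adipocytes (2). Among sinusoidal endothelial markers 7 of 11 and among stellate cell and fibroblast markers 5 of 10 lay above 0, and 0 markers of any of these types were called (limma).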

How the data were processed

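Affymetrix mouse gene arrays gave the deposited values, which are log2 signals, 1 for each transcript cluster. The submitters' processing notes name Affymetrix Expression Console 1.0; background correction, normalization and summary methods are not given in the sources used here. Of 35556 clusters, 21789 have 1 gene symbol in the platform annotation, 1621 several and 12146 none. Only clusters with 1 symbol were named, and 21698 matched RefSeq (GRCm38.p6). The cluster with the highest mean over 8 arrays stood for its gene (19938 genes), and the 60% with the highest means (11963, from 6.975 upward) were tested.

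All 8 arrays entered a single linear model with 4 group means (limma 3.58.1 under R 4.3.3) and no batch term, since the labels give none. Residual degrees of freedom were 4 and prior degrees of freedom 9.32, and the median standard error was 0.127. P-values were adjusted by Benjamini-Hochberg over all 11963 genes at 0.05. No pseudocount was used, and 0 columns of sample values were left out. The script was tested on simulated data.

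Named genes were the 12 largest called changes in each direction, filled up with the smallest unadjusted p. To these came the 2 smallest p of each list without a call, 20 set genes, and the 10 genes of opposite sign against LFD with the smallest p. Predicted genes were not named. Other list members and small RNAs were named after their values were seen. The comparison and its 31 lists were chosen with earlier results of these data known. Lists are described by counts and medians, with no set test. Motifs (6) were matched on both strands in the 250 bases before a start. Alternatives (17) covered the arrays in the fit, the replicate number as a block, filters, normalization, gene summary, variance model, gene span and leaving out each array.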

Additional observations from a re-analysis of the deposited data

How the results depend on the processing

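With no filter on signal limma called 0 genes (1001 at an unadjusted p under 0.05), with quantile normalization 0 (762), and with an intensity trend and robust prior 15, which included the 5. Leaving out 1 array gave 0 to 19 calls. The HFD and LFD+As arrays alone gave 4 calls, of which 2 (Akr1c19 and Fabp5) were among the 5; Etnppl, Slc25a30 and Snord33 were lost, and Slco1a4 and Snord57 gained. Fits of the top 40% of genes gave 7, with array medians centred 6 and with clusters averaged 4; with the gene span trend removed there were 6, 2 higher and 4 lower. In the log2 differences of the 5 genes no sign changed under any alternative: leaving out 1 array gave 1.17 to 1.29 for Fabp5, 0.91 to 1.13 for Slc25a30, 0.76 to 0.91 for Snord33, -1.43 to -1.03 for Etnppl and -1.28 to -1.12 for Akr1c19. Over the alternatives, 80 of 96 named genes had no change of sign and 16 had at least 1, in 27 of 1615 values over all 96; of 26 list medians, 13 had none and 13 at least 1. Array median centring moved the median of all genes from 0.02 to 0.06. Without detection calls in the table, dim signals could not be told from background.

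The labels do not pair replicate numbers across groups. Deviations of HFD and LFD+As arrays of the same number correlated at -0.2166. With the replicate block 5 genes were called, 4 of them the same, with Slc25a30 lost and Socs2 gained. A crossed pairing on the 4 arrays, chosen after seeing the data, called 378 genes, 247 higher and 131 lower. Because the pairing was picked on these same arrays, that count does not measure how many genes differ.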

Other observations

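Small nucleolar RNAs, which guide the modification of ribosomal and spliceosomal RNA, stood higher in HFD than in LFD+As as a family; this family was picked after its values were seen, so it is described without a test. Of 21 Snord transcripts among the genes tested, 20 lay above 0, against 57.8% of all genes. Their median log2 difference was 0.63, with a range of -0.17 to 1.25. Limma called 1 of them (Snord33), against 0.0418% of all genes. Of 17 Snora transcripts, 17 lay above 0, with a median of 0.40. Over all 40, with 2 Scarna transcripts, the median log2 signal was 8.82 and 9.23 on the HFD arrays, 8.39 and 8.16 on the LFD+As arrays, 8.67 and 8.48 on the LFD arrays and 9.23 and 9.57 on the HFD+As arrays. By these pooled medians the LFD+As arrays were the lowest and the HFD arrays stood above LFD. The Snord medians had the same order, but the other families did not. For Snora, HFD replicate 1 (8.37) lay below LFD replicate 1 (8.45). For Scarna, LFD+As replicate 1 (10.65) lay above LFD replicate 2 (10.54). Transcripts of all 3 families are short, and the arrays' deviations followed gene span. The rank correlations were 0.221 and 0.346 on the LFD+As arrays and 0.244 and -0.137 on the HFD arrays. On the LFD arrays they were 0.342 and 0.14, and on the HFD+As arrays -0.454 and -0.293. With that trend removed from each array, the difference was 0.77 for Snord33 (limma adjusted p = 0.0743) and 1.18 for Snord57 (0.251). How much of the difference of the whole family remains after that step was not tested.

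Moxd1, a gene related to dopamine beta-hydroxylase, had the largest difference of the 11963 genes tested, 1.83, and was noticed after the values were seen. It read 8.36 and 9.45 in HFD and 7.17 and 6.99 in LFD+As, and the 2 HFD arrays were over 1 log2 unit apart (limma adjusted p = 0.322).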
